A study of Mus musculus with 16 samples.

Results

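Mitosis genes were followed in B220-positive splenic B cells of 3'RR-deficient and wild-type mice. The 3'RR is the regulatory region at the 3' end of the immunoglobulin heavy chain locus (IgH). The list holds 35 genes for cyclins, kinases, checkpoint and kinetochore proteins, kinesins and cytokinesis proteins, and all 35 were named by non-control probes among 34832 gene names on the array. The brightest measured probe stood for each gene, and 34 of the 35 could be measured. The exception was Aurkb, which encodes the Aurora B kinase, since its only probe was well above background on 2 of 16 arrays. The fit covered 22735 genes.

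Total RNA was hybridised to 16 single-colour (Cy3) Agilent mouse arrays, 8 for each genotype. Per the labels, deficient animals have the 129 IgH allele knocked out, with a BALBC background and BALBC as their strain entry. Wild-type animals have the strain entry 129, so genotype and strain entry cannot be told apart. B cells had been taken from spleen with beads against B220, and the labels name no stimulation or culture, age or sex. Slide 1 held the deficient samples numbered 9, 10, 11 and 12 and the wild-type samples numbered 2, 5, 6 and 8. Slide 2 held deficient samples 1, 2, 3 and 4 and wild-type samples 1, 2, 3 and 5. Within a slide each genotype had positions of its own, 1 to 4 or 5 to 8, and these were exchanged between the slides. The study counts 4 mice per genotype but has 8 arrays for each, and no source used here ties arrays to animals. The p-values thus reflect variation among these samples, part of which may be technical.

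Mitosis genes are transcribed in waves. In resting lymphocytes, RB-family and DREAM repressor complexes keep many of them silent, and in dividing cells the same promoters are switched on late in the cycle by B-MYB and FOXM1 bound with the MuvB core. A short element near the transcript start, the cell cycle homology region, is the contact point of MuvB, and CCAAT boxes upstream of it bind NF-Y. Most mature splenic B cells rest outside the cycle, so these transcripts are widely read as a measure of dividing cells in a lymphocyte sample. In bulk RNA, a larger share of dividing cells and more RNA per dividing cell cannot be told apart.

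RefSeq promoter windows (build GRCm38.p6, from 250 bases before to 50 bases after the transcript start) were found for 30 of the 35 genes, as 32 windows. Aurkb, Ccna2, Foxm1, Kif20a and Tpx2 had none in the table. The first group of sequences is shown because its members hold matches to elements through which this gene class is known to be controlled. The second is shown because its members differed between the slides as well, without TTTGAA in their window. Each stretch runs 5′ to 3′ along the gene's strand and covers the 110 bases that end just before the transcript start. Capitals mark TTTGAA (the form of the cell cycle homology region searched for here) and CCAAT, each also in reverse complement as TTCAAA and ATTGG. Other forms of the element were not searched for, so a window without TTTGAA may still hold one.

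In 10 members the stretch holds TTTGAA in either orientation. Shown as examples of different roles are Cdk1, the mitotic kinase, Ube2c and Cdc20, which serve the anaphase promoting complex, Top2a, Kif11 and Prc1, and the other 4 are Cep55, Ckap2, Kif2c and Mki67.
Cdk1 (chr10:69352913-69353022, minus strand): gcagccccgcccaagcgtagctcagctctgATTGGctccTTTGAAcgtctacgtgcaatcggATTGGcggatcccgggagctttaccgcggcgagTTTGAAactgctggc
Ube2c (chr2:164769819-164769928, plus strand): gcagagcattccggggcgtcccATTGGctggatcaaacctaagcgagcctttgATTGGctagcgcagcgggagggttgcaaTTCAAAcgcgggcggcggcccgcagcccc
Cdc20 (chr4:118437344-118437453, minus strand): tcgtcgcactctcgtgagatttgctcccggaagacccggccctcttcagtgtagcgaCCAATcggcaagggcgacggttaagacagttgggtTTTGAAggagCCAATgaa
Top2a (chr11:99024190-99024299, minus strand): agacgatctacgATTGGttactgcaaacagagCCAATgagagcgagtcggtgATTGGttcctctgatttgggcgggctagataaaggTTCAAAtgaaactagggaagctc
Kif11 (chr19:37376272-37376381, plus strand): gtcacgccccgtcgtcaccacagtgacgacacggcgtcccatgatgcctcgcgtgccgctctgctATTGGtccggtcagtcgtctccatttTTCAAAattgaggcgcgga
Prc1 (chr7:80294366-80294475, plus strand): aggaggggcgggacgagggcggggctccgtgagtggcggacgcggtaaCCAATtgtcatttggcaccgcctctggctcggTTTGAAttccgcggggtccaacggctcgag

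Members whose window holds no TTTGAA include Ccnb1, which encodes cyclin B1, the spindle protein gene Nusap1 and the checkpoint gene Mad2l1.
Ccnb1 (chr13:100786487-100786596, minus strand): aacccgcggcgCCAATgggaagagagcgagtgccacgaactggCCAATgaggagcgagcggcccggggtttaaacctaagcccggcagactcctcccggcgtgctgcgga
Nusap1 (chr2:119618188-119618297, plus strand): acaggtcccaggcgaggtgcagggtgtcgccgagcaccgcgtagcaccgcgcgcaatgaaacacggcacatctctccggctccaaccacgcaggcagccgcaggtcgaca
Mad2l1 (chr6:66535111-66535220, plus strand): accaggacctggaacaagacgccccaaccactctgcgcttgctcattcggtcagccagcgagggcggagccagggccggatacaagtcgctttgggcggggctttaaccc

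TTTGAA occurred on either strand in 24 of the 32 member windows (75%), against 17.9% of all 32851 windows in the table. CCAAT occurred in 22 of them (68.75%) against 37.4%, and both motifs in 19 (59.4%) against 6.95%. The 2 motifs can share at most 1 base, and a match is a description of the window and not a binding site. In 19 genes a TTTGAA began between 60 bases before and 45 bases after the start, a placement found in 5.50% of all windows. Of 8 members with a window and no TTTGAA (Birc5, Bub1, Ccnb1, Cenpe, Mad2l1, Melk, Nuf2 and Nusap1), the median difference between slides described below was 3.68 in wild type on the log2 scale. It was 3.18 for the 22 members with TTTGAA. In deficient samples the medians between slides were 3.15 without and 2.68 with TTTGAA. The genotype difference on slide 1 had the other order, with medians of 0.53 without and 0.77 with it. Whether the 2 sets of members differ was not tested.

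**Figure D1:**
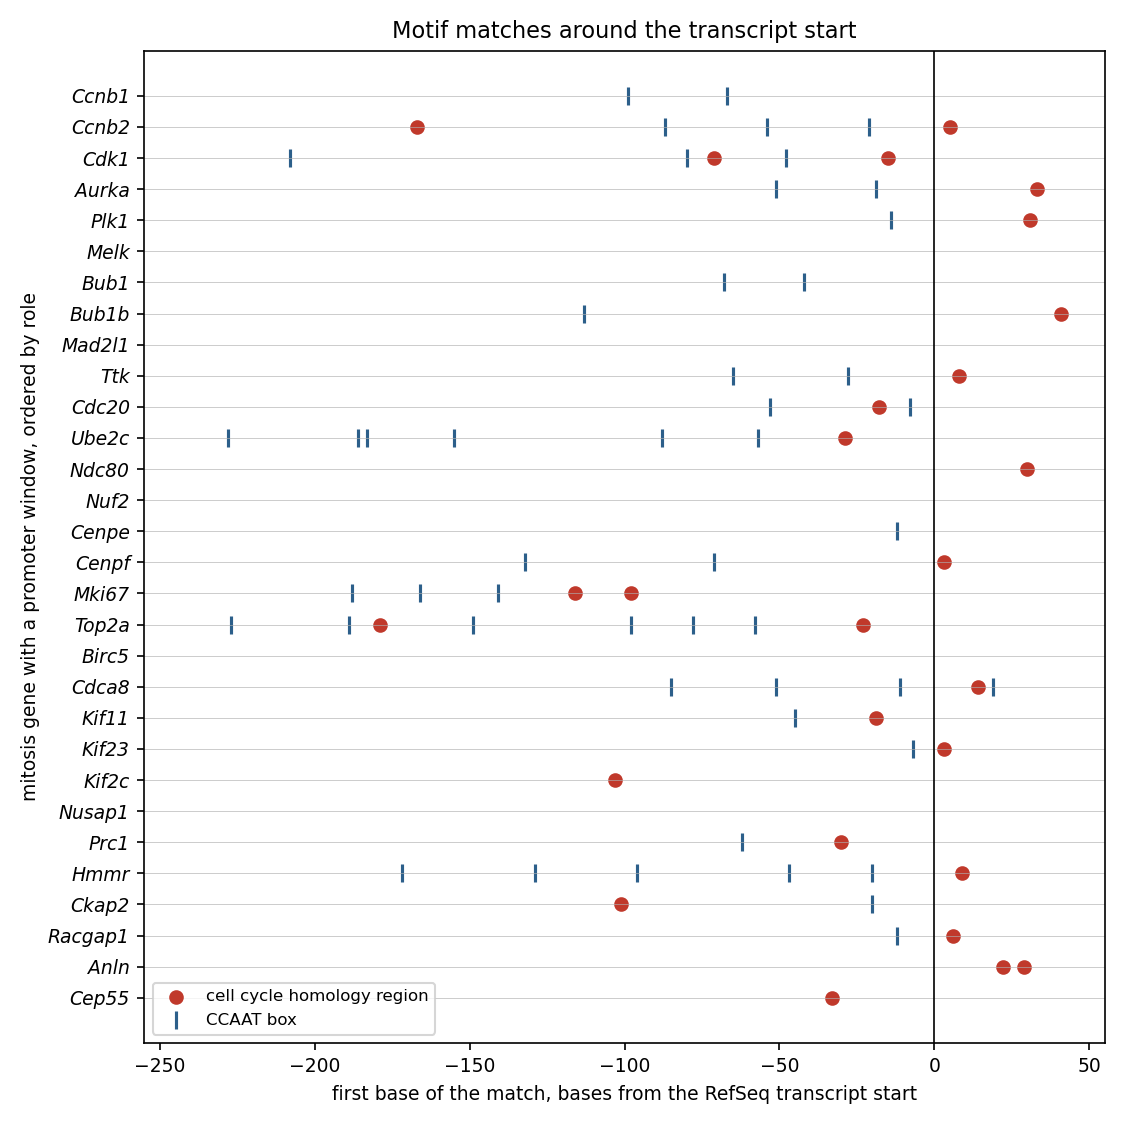
Position of each TTTGAA match (red dots, either strand) and CCAAT match (blue ticks, either strand) in the promoter windows of 30 mitosis genes, with the first base of the match in bases from the RefSeq transcript start on the x axis. Where a gene has 2 windows, 1 is drawn. Most red dots lie close to the start, with blue ticks mainly upstream of it.

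All levels below are log2 signal minus the 75th percentile of the same array, so 0 is a probe as bright as that percentile, and levels of different genes are not compared. A gene passed the test at an adjusted p under 0.05 (limma on 4 group means, Benjamini-Hochberg over 22735 genes). An array had from 26065 to 34193 probes well above background. The B cell markers Cd79a, Cd79b, Ms4a1 and Pax5 were well above background on all 16 arrays, and Cd79b had mean levels of 8.76 and 8.82 in deficient and wild type on slide 1 and 8.29 and 8.09 on slide 2.

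The mitosis genes moved together. Their mean level over the 34 genes was 0.60, 1.04, -0.06 and 0.86 on deficient arrays 9, 10, 11 and 12 of slide 1. On wild-type arrays 2, 5, 6 and 8 of that slide it was -0.45, 0.23, 0.31 and -0.32. Deficient array 11 lay among the wild-type arrays, and the other deficient arrays lay above all wild-type arrays. On slide 2 the means were 3.43, 3.32, 3.36 and 3.39 for deficient arrays 1, 2, 3 and 4, and 3.29, 3.23, 3.34 and 3.19 for wild-type arrays 1, 2, 3 and 5. Every slide 2 array was therefore above every slide 1 array, and the spread of slide 2 was far smaller, with an SD of 0.047 and 0.066 for the genotypes against 0.48 and 0.39 on slide 1 (n = 4 each).

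**Figure D2:**
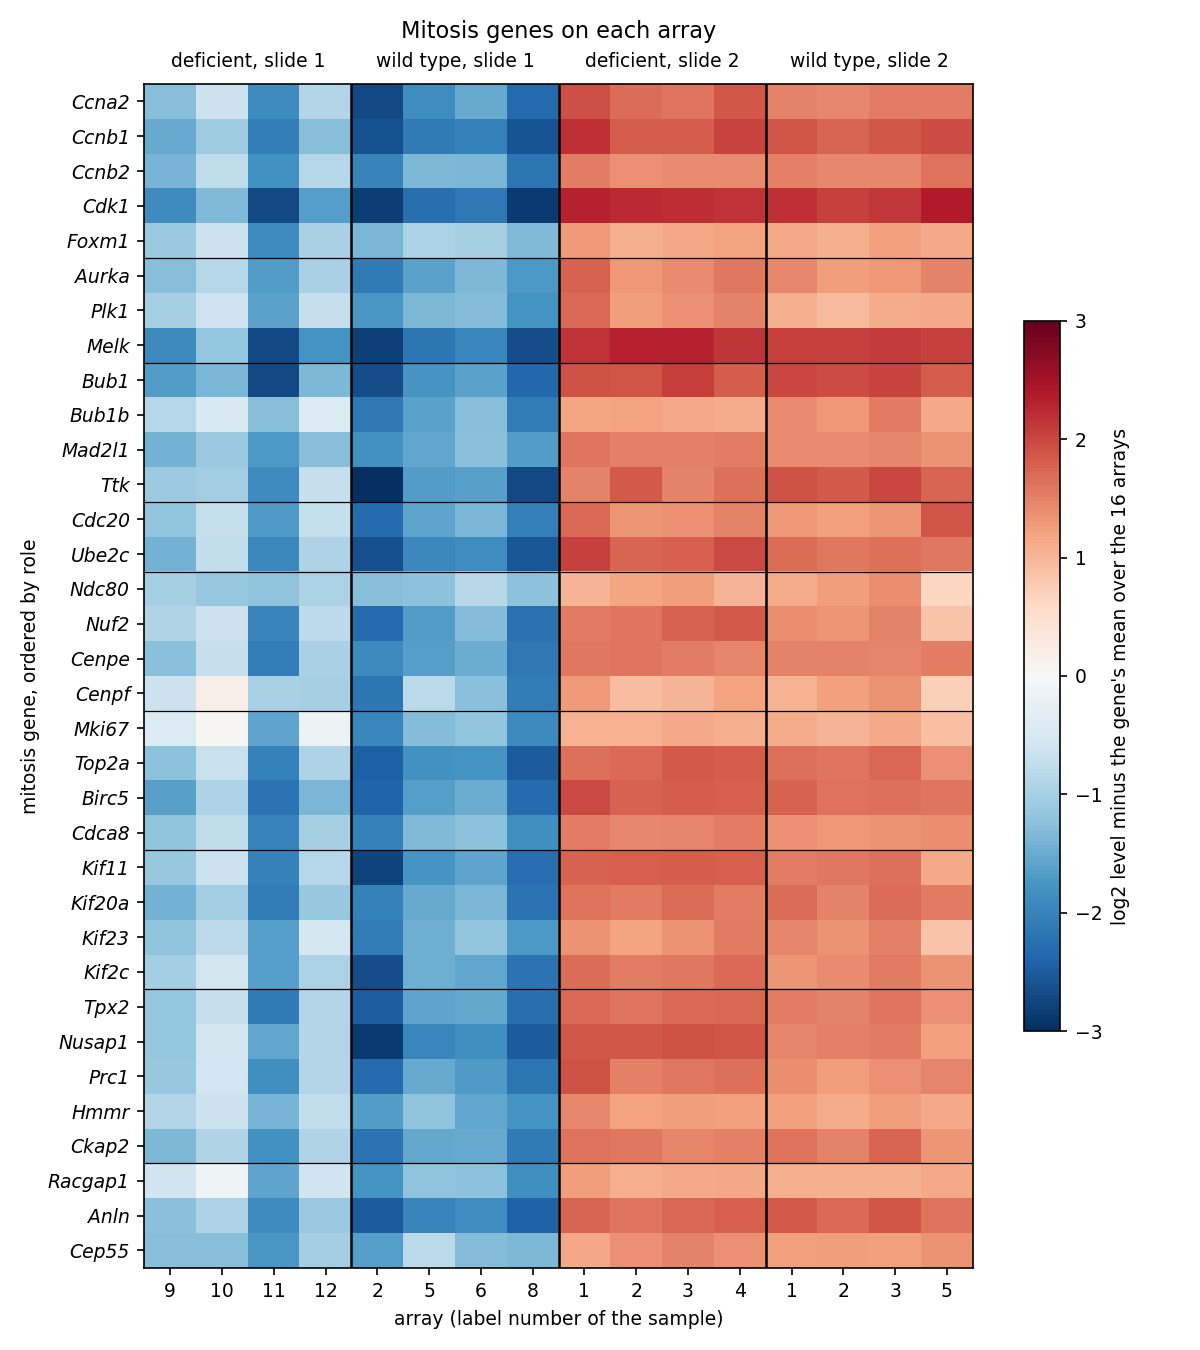
Heat map of the 34 measured mitosis genes (rows, ordered by role, with lines between roles) on the 16 arrays (columns, by genotype, slide and sample number). Colour gives the log2 level minus the gene's mean over all arrays, and nearly every gene changes from blue on slide 1 to red on slide 2, while columns of slide 1 differ as wholes.

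**Figure D3:**
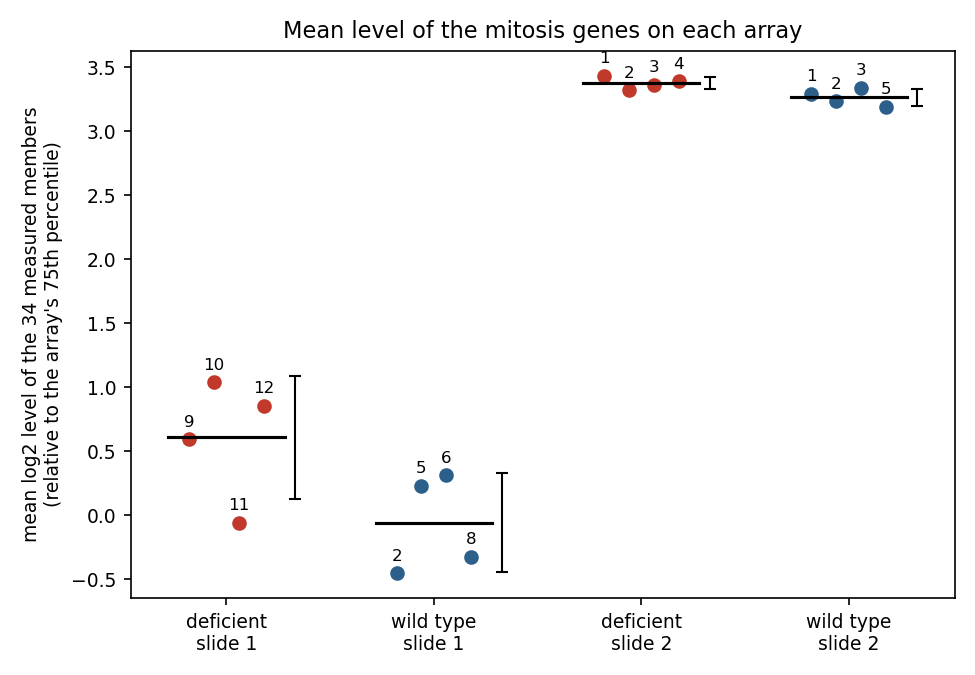
Mean log2 level of the 34 measured mitosis genes on each array (points, with sample numbers), with the mean of the 4 arrays of a group (line) and its SD (bar). Slide 2 arrays lie between 3.19 and 3.43 and slide 1 arrays between -0.45 and 1.04.

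Within slide 1, arrays of the same genotype differed for nearly the whole list at once. On deficient array 11, 0 of 34 members were above their group mean, and on arrays 10 and 12, 33 were. Among wild-type arrays, 0 members were above the group mean on arrays 2 and 8, 33 on array 5 and 32 on array 6. The deviation of a member from its group mean had a median Pearson r of 0.97 with the mean deviation of the other members over the 8 slide 1 arrays. On slide 2 the same median was 0.54, with the lowest value at -0.67 for Cep55. These correlations share the arrays and their scaling and are given as a description. The median SD of a member on slide 1 was 0.51 in deficient and 0.39 in wild type, against 0.20 and 0.21 for all genes, and on slide 2 it was 0.093 and 0.091, against 0.14 and 0.15.

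On slide 1, 19 of the 34 measured mitosis genes rose in deficient B cells (55.9%) and none fell. The fitted differences ran from 1.48-fold (Plk1) to 2.39-fold (Nusap1), except that Cenpf, too dim in wild type, has only a bound of at least 1.04-fold. Over all genes the fit called 25% on slide 1, 9.19% as higher and 15.8% as lower. Of the 34 members 33 had a positive difference, with a median of 0.69 on the log2 scale (1.62-fold) beside -0.08 for all genes. The members moved together on slide 1 (median r 0.97). They are not independent of each other, and their counts add no replicates to the 4 arrays per group. The groups overlapped for all members except Bub1b and Nusap1, which is 5.88% of them, while 7.37% of all genes had deficient arrays above all wild-type arrays and 15.1% below. With other scalings 1 to 5 members did not overlap (2.94% to 14.7% of them), against 7.19% to 10.5% of all genes. The spread behind these calls was shared with slide 2, where members varied little. The split of all calls moved with the scaling: 36.8% of slide 1 calls were higher, but 46.4% with quantile normalization, 48.0% in the authors' deposited table and 56.2% with the 75th percentile of detected probes. With slide 1 fitted alone, only Bub1b (adjusted p 0.0477) and Nusap1 (0.0371) passed by limma, among 9.73% of all genes (3.94% higher). Single arrays also moved the count: 30 members passed without deficient array 11, but 12, 10 and 11 without deficient arrays 9, 10 and 12, and 10 and 9 without wild-type arrays 2 and 8. Bub1b and Nusap1 passed under each of the 27 alternatives run for slide 1.

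Nusap1, which encodes a protein that bundles spindle microtubules near chromosomes, had levels of 1.17, 1.77, 0.76 and 1.45 on deficient arrays 9, 10, 11 and 12. On wild-type arrays 2, 5, 6 and 8 they were -0.55, 0.37, 0.47 and -0.17. All deficient arrays lay above all wild-type arrays, and the difference was 1.26 (SE 0.22, adjusted p 0.00153). Bub1b, which encodes the checkpoint protein BubR1, had 0.37, 0.76, -0.05 and 0.82 on the deficient and -0.93, -0.38, -0.06 and -0.87 on the wild-type arrays, in the same order. The lowest deficient and the highest wild-type array of Bub1b nearly touched, and the difference was 1.03 (SE 0.21, adjusted p 0.00305).

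Of the cyclin and Cdk1 genes with Foxm1, the transcription factor of late cell cycle genes, 2 of 5 rose. Ccna2, which encodes cyclin A2, had levels of 1.73, 2.35, 1.10 and 2.13 on deficient and 0.30, 1.14, 1.48 and 0.66 on wild-type arrays, a 1.91-fold difference (adjusted p 0.0186). Ccnb1 had 0.89, 1.34, 0.33 and 1.14 against -0.21, 0.29, 0.39 and -0.18, a 1.81-fold difference (adjusted p 0.00703). In both genes only deficient array 11 fell within the wild-type range. Ccnb2, which encodes cyclin B2, was at 0.53 (adjusted p 0.0975), and Cdk1 at 0.63 (adjusted p 0.0665). Foxm1 was at 0.01 (SE 0.20, adjusted p 0.969).

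Among the mitotic kinases, Plk1, which drives entry into mitosis and spindle assembly, rose by 0.57 (SE 0.19, adjusted p 0.0413). Aurka, the Aurora A kinase of spindle poles, was at 0.50 (adjusted p 0.0581), and Melk, a maternal embryonic leucine zipper kinase, at 0.51 (adjusted p 0.154). The spindle checkpoint delays anaphase until all chromosomes are attached, and 2 of its 4 genes rose, Bub1b and Ttk, the kinase at the top of the checkpoint. Ttk was dim and measured on only 2 wild-type arrays of slide 1, and its difference was 1.13 (SE 0.32, adjusted p 0.0191). The other two, the checkpoint kinase gene Bub1 and Mad2l1, were at 0.32 and 0.20 (adjusted p 0.418 and 0.276).

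Cdc20, the activator of the anaphase promoting complex, and Ube2c, its ubiquitin-conjugating enzyme, both rose. Ube2c had levels of 1.79, 2.47, 1.28 and 2.28 on deficient and 0.56, 1.28, 1.34 and 0.65 on wild-type arrays, a 1.99-fold difference (adjusted p 0.00765). Cdc20 was 1.68-fold higher (adjusted p 0.0368). For kinetochores, where microtubules attach, 2 of 4 genes rose. They were Nuf2 (0.81, SE 0.28, adjusted p 0.0459), whose probes disagree as given below, and Cenpf, which encodes a large kinetochore-associated protein. Cenpf was not well above background on any wild-type array of slide 1 and on 2 of 4 deficient arrays, so its difference is at least 1.04-fold (adjusted p 0.0318). Bounds of this kind set the brighter group's mean against the lowest well above background signal of each dim array, or the probe's own if higher. Cenpe, a kinetochore motor, was at 0.54 (adjusted p 0.0901). Ndc80, the partner of Nuf2 in the microtubule-binding complex, was at 0.07 (SE 0.15, adjusted p 0.754).

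Mki67, which encodes the proliferation marker Ki-67 on mitotic chromosomes, had levels of 5.00, 5.46, 3.83 and 5.27 on deficient and 3.47, 4.12, 4.23 and 3.50 on wild-type arrays. Again only array 11 overlapped, and the difference was 1.06 (SE 0.28, adjusted p 0.0151). Top2a, the topoisomerase that untangles sister chromosomes, rose by 0.92 (SE 0.25, adjusted p 0.0163). The chromosomal passenger genes Birc5 and Cdca8, which encode survivin and borealin, were at 0.43 and 0.36 (adjusted p 0.201 and 0.254). Of the kinesins, Kif11, which pushes spindle poles apart, and Kif2c, a microtubule depolymerase, rose 1.91-fold each (adjusted p 0.0277 and 0.0151). Kif20a and Kif23, motors of the central spindle, were at 0.35 and 0.57 and did not pass.

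Of 5 spindle proteins 4 rose. They were Nusap1, Prc1, the crosslinker of the central spindle (0.82, SE 0.23, adjusted p 0.0198), Hmmr, a spindle and hyaluronan-binding protein (0.64, SE 0.15, adjusted p 0.00871), and Ckap2 (0.61, SE 0.21, adjusted p 0.0464). Tpx2, the activator of Aurora A, was at 0.76 (adjusted p 0.051). Among cytokinesis genes, Anln, the scaffold of the contractile ring, rose by 0.90 (SE 0.18, adjusted p 0.0034) and Racgap1, which acts at the cleavage plane, by 0.80 (SE 0.24, adjusted p 0.0263). Cep55, which acts at the final cut between daughter cells, was the single member with a negative value, at -0.06 (SE 0.16, adjusted p 0.821). Its second, dimmer probe was at 0.59 (adjusted p 0.0993), measured on 3 deficient and 1 wild-type array of slide 1, so its sign depends on the probe.

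On slide 2 none of the 34 mitosis genes passed by limma in either direction, and none had an unadjusted p under 0.05. These p-values rest on a spread shared with slide 1, where members had a median SD of 0.51 (deficient) and 0.39 (wild type). On slide 2 that median was 0.093 and 0.091, so the shared fit could miss small differences there. Over all genes the fit called 8.59% on slide 2, with 50.4% of the calls higher, 65.6% with the array median and 29.7% with detected probes. That is 4.33% as higher and 4.27% as lower. The median difference of the members was 0.09 beside 0.02 for all genes, with 28 of 34 positive, from -0.26 (Ttk, SE 0.32) to 0.44 (Nusap1, SE 0.22, adjusted p 0.261). Nusap1 had 4.18, 4.17, 4.23 and 4.21 on deficient arrays 1, 2, 3 and 4 and 3.78, 3.84, 3.87 and 3.55 on wild-type arrays 1, 2, 3 and 5. Its groups did not overlap there either. With slide 2 fitted alone, Nusap1 (adjusted p 0.0111) and Plk1 (0.38, adjusted p 0.0478) passed, among 13% of all genes (6.39% higher). Plk1 had 5.42, 4.97, 5.10 and 5.20 against 4.82, 4.66, 4.82 and 4.85.

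In 12 of 34 members (35.3%) all deficient arrays of slide 2 lay above all wild-type arrays, against 13.9% of all genes, and in none did they lie below, against 9.89%. Beside Nusap1 and Plk1 they were Ccna2, Melk, Mad2l1, Ube2c, Nuf2, Birc5, Cdca8, Kif11, Tpx2 and Prc1. This count rests on the scaling of the arrays. It was 2 with quantile normalization (9.7% of all genes), 3 with the 75th percentile of probes detected on all arrays (7.75%), 3 in the authors' deposited table (9.44%) and 14 with the array median (20.7%). With those same settings 20, 18, 19 and 32 members had a positive difference, against 28 in the main scaling. On slide 1, 32 to 34 members were positive under these settings.

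**Figure D4:**
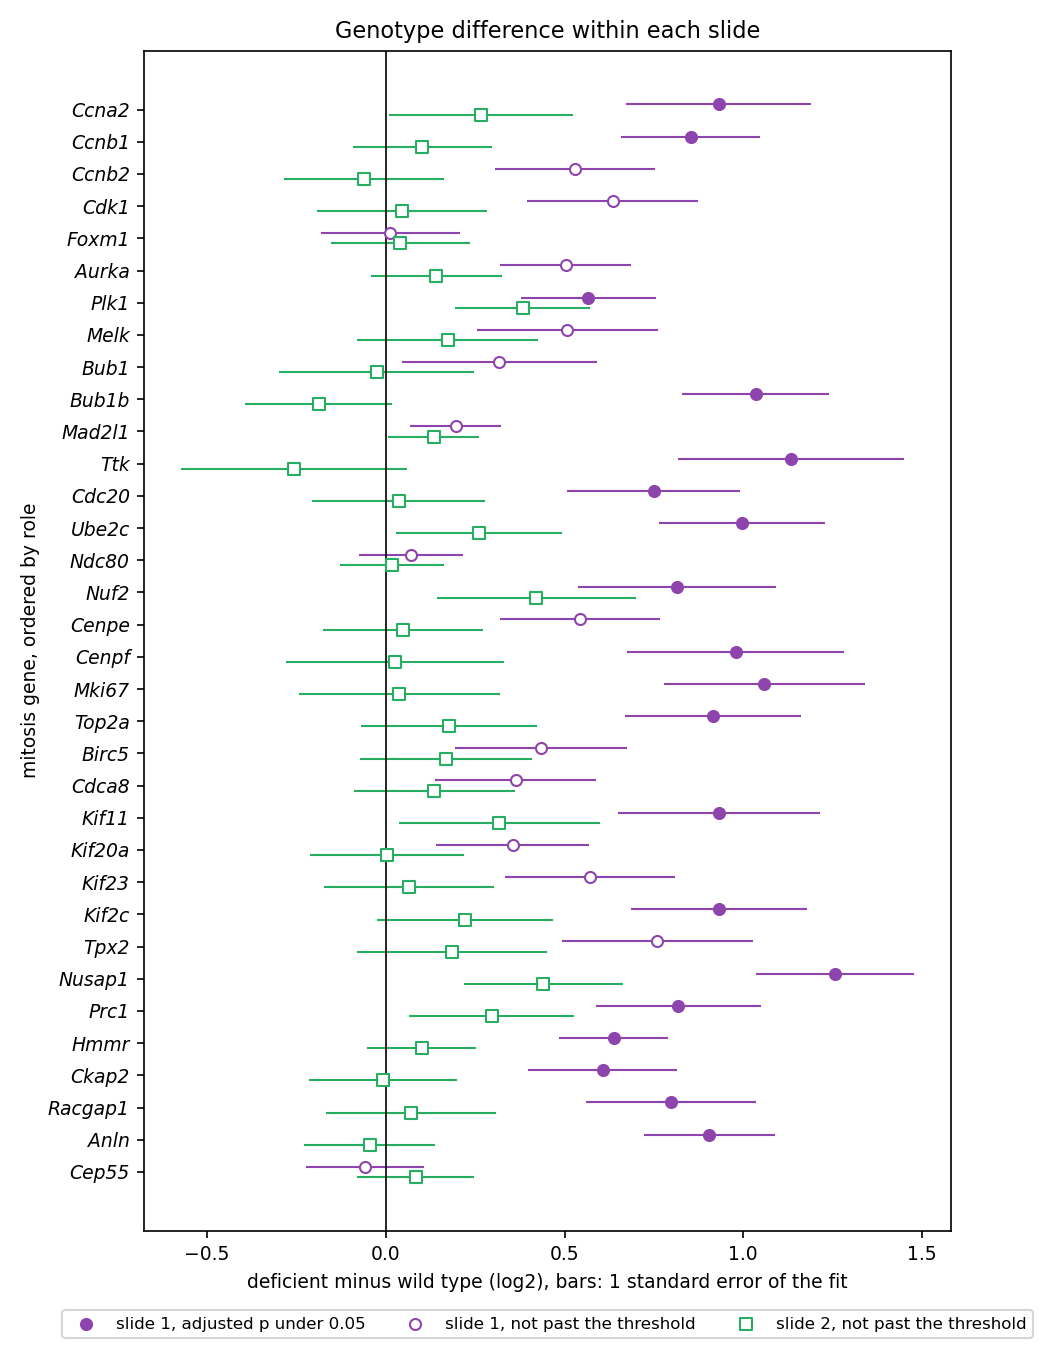
Difference between deficient and wild type (log2, x axis) for each of the 34 measured mitosis genes on slide 1 (purple circles) and slide 2 (green squares), with 1 standard error of the fit. Filled symbols passed an adjusted p of 0.05. On slide 1, 19 genes are filled, from 0.57 to 1.26, and on slide 2 none are.

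The change of the genotype difference from slide 1 to slide 2 was tested as an interaction. It was negative for 32 of 34 members, with a median of -0.58 beside 0.09 for all genes. It passed for 3 members, all lower on slide 2, while 15.9% of all genes passed, 10.5% as higher and 5.4% as lower. The share of higher calls was 66.0%, and 29.8% to 73.9% with other scalings. They were Bub1b (-1.22, SE 0.29, adjusted p 0.0139), Anln (-0.95, SE 0.26, adjusted p 0.0252) and Ttk (-1.39, SE 0.45, adjusted p 0.0489). For Bub1b and Ttk the slide 2 difference itself was -0.19 and -0.26, neither past the threshold. The count ran from 1 to 14 when single arrays were left out, with 14 without deficient array 11 of slide 1, and 1 without deficient array 2 or without wild-type array 1 or 3 of slide 2. Nusap1 (-0.82, adjusted p 0.0918) and Mki67 (-1.02, adjusted p 0.0954) did not pass.

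Over both slides together 12 members were higher in deficient samples (35.3%, against 7.64% of all genes called higher) and none lower (9.95% of all genes), with a median of 0.41 beside -0.03. Of all calls 43.4% were higher, and 58.3% with the array median. They were Ccna2, Ccnb1, Plk1, Ube2c, Nuf2, Top2a, Kif11, Kif2c, Nusap1, Prc1, Hmmr and Anln. Nusap1 was the highest, at 1.80-fold (0.85, SE 0.16, adjusted p 0.00227). With slide as an additive block 4 members passed, among 11.9% of all genes (5.36% higher). With slide as a random block 1 passed, among 9.83% (4.29% higher). Without single arrays the count ran from 2 to 23, and it was 23 without deficient array 11. It was 5, 3 and 3 without deficient arrays 9, 10 and 12 of slide 1 and 3 without wild-type array 2 or 8. Without 1 array of slide 2 it was 2, 7, 7 and 4 for deficient arrays 1, 2, 3 and 4, and 5, 2, 7 and 6 for wild-type arrays 1, 2, 3 and 5.

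The largest contrast in the list was between the slides. In wild type all 34 measured mitosis genes were higher on slide 2, by 4.72-fold (Ndc80) to 26.2-fold (Cdk1), with a median of 3.29 on the log2 scale (9.79-fold). In deficient samples all 34 were higher as well, by 3.04-fold (Mki67) to 17.5-fold (Melk), with a median of 2.78 (6.86-fold). Slide 2 arrays lay above slide 1 arrays for every member in both genotypes. Between slides most genes differ: 73.9% of all genes were called in wild type (48.7% higher) and 76.1% in deficient (50.5% higher), and groups did not overlap, with slide 2 higher, for 45.3% and 48.2%. The median of all genes was 0.35 in wild type and 0.40 in deficient. With each array scaled by its median these became -0.03 and 0.11, the share of higher calls went from 65.9% to 47.7% in wild type and from 66.4% to 53.9% in deficient, and the members' medians were 2.91 and 2.48, with all 34 still called in both. Slide, scan and sample set cannot be told apart in this contrast.

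Cdk1, the kinase that starts mitosis, had levels of -2.28, -1.73, -1.61 and -2.34 on wild-type arrays 2, 5, 6 and 8 of slide 1, and 2.73, 2.58, 2.67 and 2.91 on wild-type arrays 1, 2, 3 and 5 of slide 2. That is a difference of 4.71 (SE 0.24, adjusted p 4.48e-10). On deficient arrays it went from -1.36, -0.78, -2.16 and -1.12 to 2.84, 2.77, 2.76 and 2.70. All 8 arrays of slide 2 lay between 2.58 and 2.91, whichever the genotype. A second, dimmer Cdk1 probe gave a smaller difference of 0.74 in deficient samples (1.66-fold, adjusted p 0.0391), measured on 2 of 4 slide 1 arrays. In wild type that probe was not well above background on slide 1, and its difference is at least 2.55-fold. Melk differed by 4.46 in wild type and 4.13 in deficient, and Bub1 by 4.04 and 3.70. Ccnb1 differed 18.4-fold in wild type and 10.9-fold in deficient. In wild type the lowest values were those of Ndc80 (2.24) and Foxm1 (2.30), which were at 2.19 and 2.33 in deficient. In deficient samples the lowest were Mki67 (1.61), Cenpf (1.71), Racgap1 (1.88) and Bub1b (1.91).

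By role, the medians in wild type ran from 2.61 for the 3 cytokinesis genes to 3.60 for the 5 cyclin, Cdk1 and Foxm1 genes. Within the latter role single genes ran from 2.30 to 4.71. Mki67 differed by 2.63 in wild type and 1.61 in deficient. It went from 3.47, 4.12, 4.23 and 3.50 to 6.54, 6.43, 6.55 and 6.32 on the wild-type arrays, so slide 2 again showed a narrow band. Cenpf was dim on slide 1, and its wild-type difference is at least 3.33-fold.

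**Figure D5:**
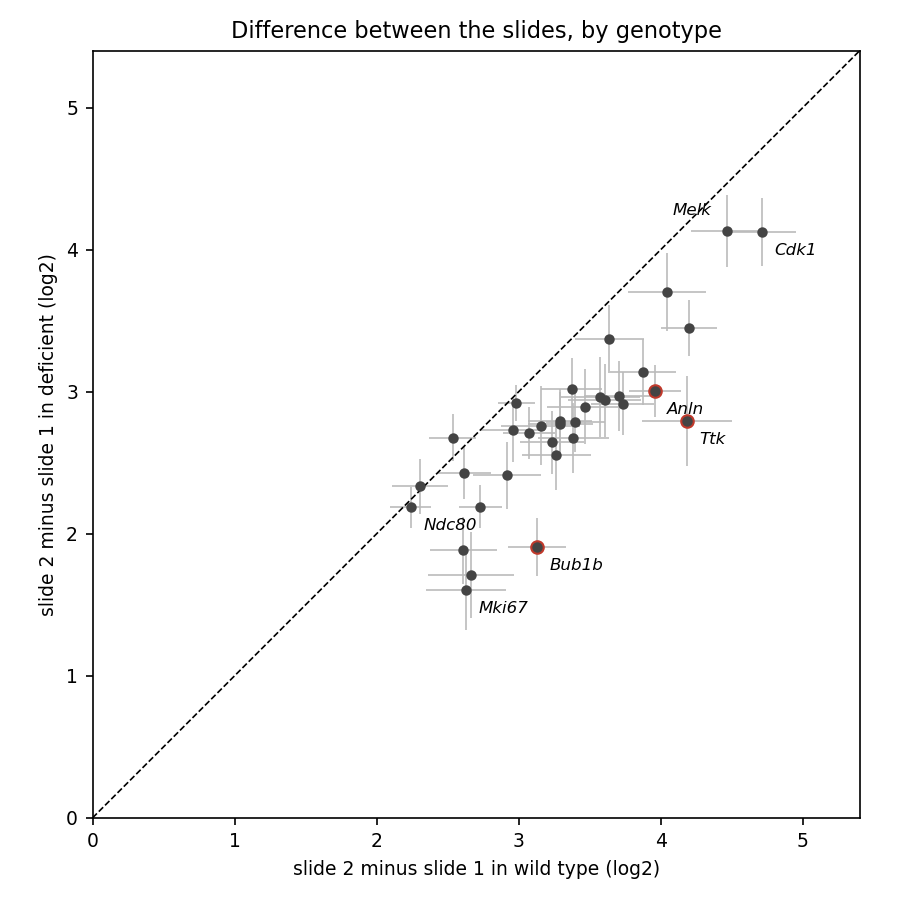
Difference between slide 2 and slide 1 (log2) in wild type (x axis) and deficient samples (y axis) for the 34 measured mitosis genes, with 1 standard error of the fit. The dashed line marks equal differences, and the genes circled in red are Bub1b, Ttk and Anln, which passed the interaction test. All points lie above 1.6 on both axes and 32 lie below the line.

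Other cell cycle genes were read from further lists. Beside their counts, 9.19% of all genes were called higher and 15.8% lower on slide 1, and 4.33% and 4.27% on slide 2. Between slides 48.7% were higher and 25.2% lower on slide 2 in wild type, and 50.5% and 25.6% in deficient. Whether the counts of these lists differ from such shares was not tested. Of 80 other mitosis genes 78 were measured, and 24 rose and 1 fell on slide 1 (median 0.44), 2 rose on slide 2 (median 0.14), and 77 were higher on slide 2 than on slide 1 in each genotype (medians 3.08 and 2.68). Ckap2l, a spindle protein gene, had the smallest adjusted p on slide 1 (1.38, SE 0.22, adjusted p 0.000921) and also rose on slide 2 (0.78, adjusted p 0.0456). Pttg1, which encodes securin, rose on slide 1 by 1.05 (adjusted p 0.00179). Cenpq, a centromere protein gene, fell there by 0.46 (SE 0.08, adjusted p 0.00134).

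Of 38 DNA replication genes, 8 rose and 3 fell on slide 1 (median 0.12), and 1 rose on slide 2. Over all genes 9.19% rose and 15.8% fell on slide 1, and 4.33% rose on slide 2. The sliding clamp gene Pcna fell by 0.54 (SE 0.08, adjusted p 0.000786) and the licensing factor gene Cdt1 fell by 0.37 (adjusted p 0.00401). Between slides 36 of the 38 were higher on slide 2 in wild type and 38 in deficient (median 2.09 in both). Whether the genotype difference of this list differs from that of the mitosis genes was not tested. TTTGAA occurred in 18.9% of the replication gene windows and in 57.1% of the windows of the other mitosis genes.

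Subunits of the anaphase promoting complex had a median of -0.10 on slide 1, where 5 of 15 fell and none rose. Over all genes 15.8% fell and 9.19% rose on that slide. Between slides 14 of the 15 were higher on slide 2 in each genotype, with medians of 0.60 and 0.90. Of 13 genes of the DREAM, MuvB and RB families 5 rose and 2 fell on slide 1. Mybl2, which encodes B-MYB, was 3.35 higher on slide 2 in wild type (SE 0.20, adjusted p 2.46e-09), and Rb1 fell in deficient samples on both slides (-0.27 and -0.28, adjusted p 0.0159 and 0.0275). Of 14 measured G1 and S cyclins, kinases and E2F genes 3 rose and 1 fell on slide 1. Ccne1, which encodes cyclin E1, rose by 0.71 (adjusted p 0.00747), and Myc fell by 0.89 (adjusted p 0.00734).

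Inhibitors of the cycle gave a mixed picture. Of 17, 3 rose and 4 fell on slide 1, and 1 rose and 3 fell on slide 2. Over all genes 9.19% rose and 15.8% fell on slide 1, and 4.33% and 4.27% on slide 2. Cdkn1a, which encodes the p21 inhibitor and was measured on 2 of 4 wild-type arrays of slide 1, rose by 1.29 on slide 1 (SE 0.26, adjusted p 0.00294) and fell by 1.18 on slide 2 (adjusted p 0.0106), an interaction of -2.47 (adjusted p 0.00125). Between slides it was 6.58 higher on slide 2 in wild type and 4.11 in deficient. Foxo1, a factor of resting B cells, was 1.70 lower on slide 2 in wild type (log2 difference -1.70, SE 0.10, adjusted p 2.75e-09).

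Of the markers of other cells that differed between the slides, most were lower on slide 2 in both genotypes. Over all genes 48.7% were called higher and 25.2% lower on slide 2 in wild type, and 50.5% and 25.6% in deficient. Of 18 measured myeloid and macrophage markers, 13 were lower and 1 higher on slide 2 in wild type and 16 lower and 1 higher in deficient. On slide 2, 7 of the 18 in wild type and 9 in deficient were not well above background on any array, so the size of the drop is not measured for them. Their summed level, in multiples of the array's 75th percentile, was 100.3 to 296 on slide 1 arrays and 16.2 to 27.8 on slide 2 arrays, where 7 to 10 of the 18 were well above background. C1qc, a macrophage complement gene, was well above background on all 8 arrays of slide 1 and on none of slide 2. Of 12 markers of NK and plasmacytoid dendritic cells, 11 were lower in wild type and 10 in deficient and none higher, with summed levels of 217 to 284 on slide 1 and 178 to 218 on slide 2. Of 10 T cell markers 8 were lower and 1 higher in each genotype, with summed levels of 89.5 to 102 on slide 1 and 75.2 to 125 on slide 2. The higher one was Thy1 (4.70 and 4.67), named after its values were seen. Of 15 measured erythroid markers 7 and 6 were lower and 2 higher, with summed levels of 60.2 to 355 on slide 1 and 12.6 to 25.6 on slide 2.

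Of 11 B cell markers 9 were lower on slide 2 and none higher in wild type, led by Cr2, the complement receptor of mature B cells (-6.73, SE 0.14, adjusted p 1.31e-13). In deficient samples 8 were lower and 2 higher. For 4 of the 11 the genotype difference was higher on slide 2 by the interaction test, against 10.5% of all genes. Of 8 germinal centre markers 3 were higher and 4 lower in each genotype, and their summed level was 22.9 to 43.0 on slide 1 arrays and 83.4 to 98.6 on slide 2 arrays. Of 10 plasma cell markers 5 were higher and 2 lower in wild type, and 2 higher and 4 lower in deficient. Of 5 measured B cell precursor markers 1 was higher in each genotype, and 3 were lower in wild type and 4 in deficient. Beside these counts, 48.7% of all genes were higher and 25.2% lower in wild type, and 50.5% and 25.6% in deficient. Whether these short lists differ from those shares was not tested. The part of these cell markers in the slide contrast of the mitosis genes was not tested.

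Marker lists were also read between the genotypes. Over all genes 9.19% were called higher and 15.8% lower on slide 1, and 4.33% and 4.27% on slide 2. The lists are short, and whether their counts differ from these shares was not tested. Of 10 plasma cell and plasmablast markers 4 rose and 1 fell in deficient samples, led by Tnfrsf17, the receptor BCMA (2.04, SE 0.38, adjusted p 0.00206). Their summed level was 264.1 to 546 on deficient and 167 to 263.8 on wild-type arrays. Of the same 10, 5 were lower in deficient samples on slide 2 (Tnfrsf17 with an adjusted p of 0.00339, measured on 4 wild-type and 0 deficient arrays). Summed levels there were 178 to 231 against 241 to 319. None of 15 erythroid markers passed on slide 1, with summed levels of 66.7 to 223 on deficient and 60.2 to 355 on wild-type arrays. On slide 2, 3 of them rose, led by the globin gene Hbb-b1 (adjusted p 1.75e-05), which was measured on 4 deficient and 0 wild-type arrays. Of 11 B cell markers 3 fell and none rose on slide 1, and 2 rose on slide 2. Of 5 measured B cell precursor markers 1 rose and 2 fell on slide 1, and 3 fell on slide 2. None of 12 NK and plasmacytoid dendritic cell markers, 1 of 10 T cell markers in each direction, none of 8 measured germinal centre markers and 1 of 18 myeloid markers (Lyz1, 1.15, adjusted p 0.0354) passed on slide 1. The part of these lists in the genotype difference of the mitosis genes was not tested.

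The genes most like the members were sought over the 16 arrays by the correlation of their deviations from group means with the mean deviation of the members. The 10 highest ran from 0.977 to 0.990. They were Cdca2, Ska1, E2f8, Sgol1, Cdca5, Pbk, Prr11, Lrr1 and 2 probes that the files leave unnamed. Cdca2 led with 0.990, and its levels were 0.08, 0.42, -0.56 and 0.39 on deficient arrays 9, 10, 11 and 12 and -1.03, -0.34, -0.31 and -0.94 on wild-type arrays 2, 5, 6 and 8. This is the same order of arrays as in the mean of the members. Its genotype difference on slide 1 was 0.74 (adjusted p 0.0177).

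Several members had more than 1 measured probe, and for a few the probes disagreed. In 14 genes 18 other probes were kept, and between slides all 18 had the sign of the main probe in both genotypes. The sizes were apart by over 1 on the log2 scale for 2 probes in each genotype. These were of Cdk1 and Nuf2 in wild type and of Cdk1 and Kif23 in deficient. Of the 18 probes, 13 agreed in sign within slide 1 and 10 within slide 2. Nuf2 stood out. Its main probe (mm9 chr1:171428989-171429048, minus strand, assigned to NM_023284) had positive differences on both slides. A second probe (chr1:171440451-171440510, minus strand, assigned to ENSMUST00000111363) had levels of -1.82, -1.24, -1.06 and -1.67 on wild-type arrays 2, 5, 6 and 8 of slide 1, and was not well above background on any deficient array there. Its signal was at least 9.56-fold lower in deficient samples on slide 1 (adjusted p 6.12e-10).

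On slide 2 this second Nuf2 probe was measured everywhere. It had 1.70, 1.58, 1.69 and 1.69 on wild-type arrays 1, 2, 3 and 5 and -4.21, -4.58, -4.45 and -4.17 on deficient arrays 1, 2, 3 and 4, a difference of -6.01 (adjusted p 7.96e-11). The last of its probes (chr1:171428269-171428328, minus strand) was not well above background on slide 1 and differed by -2.52 on slide 2 (adjusted p 3.64e-05). The direction of Nuf2 between genotypes therefore depends on the probe, while all 3 probes were brighter on slide 2 in both genotypes. For Kif23 a second probe (chr9:61775096-61775155, minus strand, assigned to ENSMUST00000055275) had -2.08, -2.22, -2.07 and -2.08 on deficient and -3.80, -4.44, -4.18 and -4.72 on wild-type arrays of slide 2. It was 2.17 higher in deficient samples (adjusted p 7.74e-06), where the main probe showed 0.07 (adjusted p 0.918). Exon positions for these probes were not used here.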

How the data were processed

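Spot intensity values are the scanner output that the authors deposited, background-subtracted by Feature Extraction (Agilent, version 10.7.3.1, per the file headers) and not scaled between arrays. A deposited table of log2 values, scaled by the authors (column medians 5.58 to 5.60 on slide 1, 6.49 to 6.50 on slide 2), served as an alternative within slides; its method is not given in the sources used here. The submitters' notes name limma, for slide 2 samples alone. Gene names and mm9 coordinates are those of the spot rows.

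Control and outlier-flagged spots were left out and spots of a probe averaged. Log2 intensity minus the array's 75th percentile was taken. Probes had to be well above background on 4 or more of the 16 arrays, and the brightest stood for a gene. A mean per genotype and slide was fitted with limma 3.58.1 (R 4.3.3), with Benjamini-Hochberg adjustment over 22735 genes, and the script was tested on simulated data. Precision is limited by 4 arrays per group.

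Members and lists were chosen with earlier results of these data known. All members are accounted for by role. Of other lists at most the 3 genes with the smallest adjusted p in a comparison are named, with defining cell markers, and the 10 genes most like the members by correlation of deviations. Motifs were counted in RefSeq windows. Alternatives covered scaling, background, filters, probes, weights, blocks and each array left out.

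Some items are not reported here.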

Additional observations from a re-analysis of the deposited data

Results flagged for a closer look

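In 5 of 136 groups of 4 arrays (34 genes in 4 groups), 1 array stood far from the other three by Dixon's criterion, where chance alone gives about 6.8. Cdc20 was at 5.9615 on wild-type array 5 of slide 2, with the others from 5.33 to 5.41. Ndc80 was at -0.2082 on wild-type array 6 of slide 1, with the others from -0.64 to -0.60. On deficient array 1 of slide 2, Birc5 was at 6.9468 (others 6.75 to 6.78) and Hmmr at 3.8786 (others 3.65 to 3.68). Tpx2 was at 3.7598 on deficient array 2 of slide 2, with the others from 3.86 to 3.87.

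The genotype difference changed between the slides by the interaction test for Bub1b (-1.222), Ttk (-1.3906) and Anln (-0.9499). Each was lower on slide 2, where the difference itself was -0.19, -0.26 and -0.045. That is 8.82% of the members, against 15.9% of all genes, of which 5.4% passed as lower. Ttk passed narrowly (adjusted p 0.0489) and was measured on 2 of 4 wild-type arrays of slide 1.

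Of the 18 kept probes not used for their gene, 3 gave signal in deficient samples above the wild-type level where the main probe did not pass, while 5 on slide 1 and 8 on slide 2 had the opposite sign to the main probe, among them the Nuf2 probes described above. A second Cdk1 probe was measured on 2 deficient and 0 wild-type arrays of slide 1, with a fitted difference of 2.3406, which as a bound is at least 1.32-fold. A second Tpx2 probe, also measured on 2 and 0 arrays there, had a fitted 0.9839, or at least 1.03-fold. The second Kif23 probe was 2.1735 higher in deficient samples on slide 2.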

How the results depend on the processing

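In both genotypes every measured member was higher on slide 2 under each alternative run (32 of 32 where probes had to be measured on all arrays), and without single arrays the medians ran from 3.16 to 3.41 in wild type and from 2.55 to 2.90 in deficient. The wild-type median was 2.911 with the array median. On slide 1 the count of 19 became 2 with the slide fitted alone and ran from 9 to 30 without single arrays, with medians from 0.567 to 0.930. On slide 2 the median of 0.09 was 0.015945 with detected probes, 0.0125 in the authors' deposited table, 0.013891 with quantile normalization and 0.1774 with the array median. The count of 0 was 2 with array weights (27.5% of all genes), with the mean over probes (8.67%) and with the slide fitted alone (13%). It stayed at 0 without any single array. Over both slides the count of 12 was 4 without the filter on dim probes, where 9.01% of all genes passed. It was 4 with slide as an additive block (11.9% of all genes) and 1 as a random block (9.83%). Without single arrays it ran from 2 to 23. The interaction count of 3 was 5 with detected probes, 12 with array weights, 5 in the authors' deposited table and 6 with the mean over probes. Those settings called 11%, 26.9%, 11.7% and 15.4% of all genes, against 15.9% in the main fit. Without single arrays the interaction count ran from 1 to 14.

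With the mean over probes Nuf2 reversed to -1.765 on slide 1, -2.705 on slide 2 and -2.235 over both, and the Kif23 interaction to 0.8455, since their probes differ. The cause of the other changes was not tested. Counts of members whose groups do not overlap under other scalings were chosen after seeing the data. With replicate number as a block on slide 2, no member passed and the median was 0.10583; deviations of same-numbered samples correlated at 0.0098, 0.123 and 0.0679, so the numbers were not treated as pairs. The fits over both slides were not run for 1 slide alone, and the authors' table was not used between slides.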
